A study of Mus musculus with 6 samples.

Results

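Complement and coagulation are the cascades of secreted proteases, cofactors, receptors and inhibitors that tag foreign surfaces and form clots, and many of their genes are transcribed in fat as well as in the liver. The genes described here are a list of 46 complement and coagulation genes. They were chosen by name, with earlier results of these data known. Of the 46, 43 were found by gene symbol among the 16619 genes of the study's expression table. C1rb, C1s2 and Proc were not analysed here. All 43 genes stood at 0.5 CPM or more (reads of a gene scaled to the size of the library) in at least 3 of the 6 libraries, as did 16109 genes in all, so none was lost to the filter on low values. 23 of them belong to complement and 20 to coagulation and fibrinolysis.

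In complement, C1q, mannose-binding lectins or the slow turnover of C3 itself start a chain of proteases that meets at the cleavage of C3, and the terminal proteins C5 to C9 then build a pore in the target membrane. In coagulation, tissue factor (F3) on a cell surface binds factor VII, factor X is activated, and with its cofactor, factor V, it makes thrombin, while thrombomodulin, the protein C receptor and tissue factor pathway inhibitor hold the cascade back and plasminogen activators dissolve the clot. Adipocytes are known as a main source of factor D, which acts at the alternative pathway of complement, and stromal cells, macrophages and endothelium of fat transcribe other parts of both cascades.

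The RNA came from epididymal white adipose tissue (eWAT, the label's name for the gonadal fat depot, although the mice were females), taken at 6 months of age. WT mice carried floxed Prmt5 alleles without Cre (Prmt5 flox/flox), and Prmt5 AKO mice carried Adipoq-Cre with the same alleles (Adipoq-Cre; Prmt5 flox/flox), which removes the arginine methyltransferase PRMT5 in adipocytes because the Adipoq promoter drives the recombinase there. Other cells of the depot keep Prmt5 and contribute RNA to every library, and in bulk tissue fewer cells of a type and less RNA per cell cannot be told apart. There were 3 WT and 3 Prmt5 AKO libraries of poly(A)-selected RNA. The sources do not state that each library came from a separate mouse, so the p-values measure the spread between these libraries, which may be technical.

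The libraries held 18731215 to 27445096 reads counted in genes. Prmt5 was at 36.6, 59.7 and 39.7 CPM in the WT libraries and at 14.6, 22.0 and 28.5 CPM in the Prmt5 AKO libraries. The genotypes did not overlap, with an exact two-sided permutation p of 0.1, the smallest that 3 against 3 libraries allow. In the limma test described below its log2 fold change was -1.06 (SE 0.34, adjusted p = 0.436), so that test did not call the deleted gene. The 8 adipocyte markers, Adipoq and Fabp4 among them, summed to 27323 to 36571 CPM in WT and to 23653 to 35386 CPM in Prmt5 AKO, so the labelled tissue carried its defining transcripts in both genotypes. Not all differences between libraries followed genotype. A set of 8 RNAs that stay in the nucleus, such as Malat1 and Neat1, summed to 3082, 812 and 2139 CPM in the WT libraries and to 3075, 198 and 207 CPM in the Prmt5 AKO libraries. Prmt5 AKO replicate 1 therefore stood with WT replicates 1 and 3 in this measure, as it did on the axis of largest variance, which took up 64.5% of it. Its part in the results was not tested, and results are given without these libraries where that matters.

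The comparison asks which of these genes differ between fat without and fat with PRMT5 in its adipocytes. No complement or coagulation gene passed the test, and single genes of both cascades stood on either side. The C1 inhibitor Serping1, the terminal component C6, factor VII (F7), the lectin pathway protease Masp2 and the serpin Serpinf1 were higher in every Prmt5 AKO library than in any WT library. The classical pathway protease C1s1, tissue factor (F3), factor V (F5), thrombomodulin (Thbd), the protein C receptor (Procr) and tissue plasminogen activator (Plat) were lower in every Prmt5 AKO library than in any WT library. These 5 and 6 genes make up 25.6% of the 43, where 14.4% of all genes had genotypes that did not overlap (8.16% higher and 6.28% lower). By cascade they were 4 of 23 complement genes (17.4%, near the share of all genes), with 3 higher and 1 lower. In coagulation they were 7 of 20 genes (35%), with 2 higher and 5 lower. The list was made with earlier results of these data known, so these shares are a description.

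Each gene was tested with limma on log2(CPM + 0.5), with p-values adjusted by the Benjamini-Hochberg method over all 16109 genes, and called where that adjusted p was under 0.05 for a log2 fold change of more than 0.5 in either direction. The number called was 0 of 43, as it was 0 of all genes (0%), and the smallest adjusted p among the 43 was 0.336, for F5. At an unadjusted p under 0.05 stood 11 of the 43 genes (25.6%), with 4 higher and 7 lower in Prmt5 AKO, against 8.72% of all genes (4.79% higher and 3.93% lower). edgeR's quasi-likelihood test on the read counts also called 0 genes in all and 0 of the 43. Other tests on the read counts did not share this result. The likelihood ratio test of edgeR called 162 genes (1.01%) and 1 of the 43, and DESeq2 called 301 (1.87%) and 3 of the 43. The study itself, with edgeR and a batch correction, reported changed genes at these cutoffs, Prmt5 among them. Fold changes here compare Prmt5 AKO with WT on the log2(CPM + 0.5) scale, which understates the change of low genes. The median log2 fold change was -0.11 over the 23 complement genes, with 11 positive and 12 negative values, and -0.44 over the 20 coagulation genes, with 6 positive and 14 negative values. Over all genes it was -0.03, with 48.1% positive.

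These counts depended on single libraries. Without Prmt5 AKO replicate 1, 25 of the 43 genes did not overlap and 18 stood at an unadjusted p under 0.05, but so did 56.8% and 35.3% of all genes, and the median of the coagulation genes was -0.63. Without WT replicate 2, 17 did not overlap, against 31.7% of all genes. Leaving out WT replicate 1, WT replicate 3, Prmt5 AKO replicate 2 or Prmt5 AKO replicate 3 left 5 genes each at an unadjusted p under 0.05, against 3.98% to 4.81% of all genes.

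**Figure D1:**
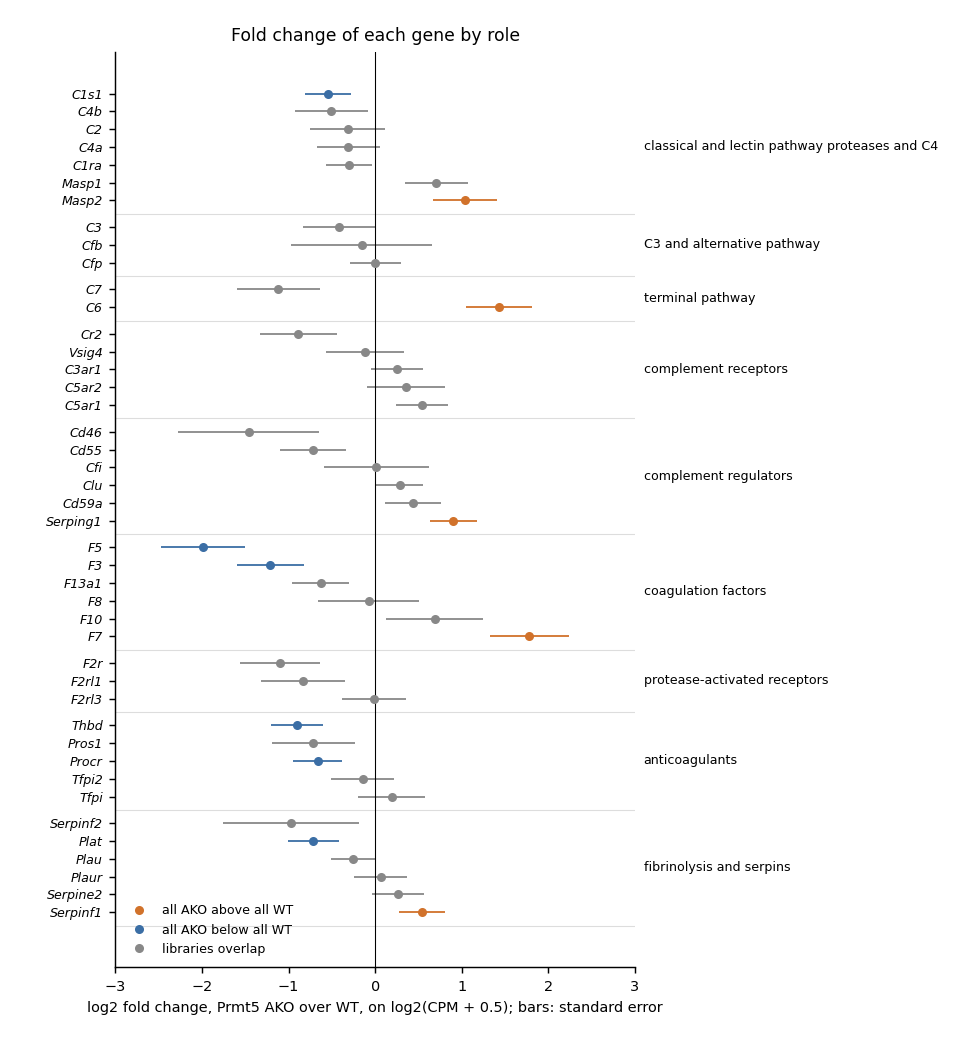
Log2 fold change of Prmt5 AKO over WT (x axis, on log2(CPM + 0.5)) for each of the 43 genes, grouped by role, with bars of 1 standard error. Orange points mark the 5 genes whose Prmt5 AKO libraries all lay above the WT libraries, blue points the 6 whose Prmt5 AKO libraries all lay below, and grey points the genes whose libraries overlap. F7 and C6 lie farthest to the right and F5 farthest to the left.

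The genes covered a wide range of levels. Per kilobase of exon, C3, the protein on which all pathways of complement meet, stood first with a mean of 337 CPM per kb in WT and 241 CPM per kb in Prmt5 AKO. Serping1 stood second with 139 CPM per kb in WT and 259 CPM per kb in Prmt5 AKO, so that its mean was above that of C3 in the mutant fat and below it in WT. This did not hold in each library, as C3 stayed above Serping1 in Prmt5 AKO replicate 1. Cd59a, an inhibitor of pore formation, Serpinf1 and C4b followed in the order over all libraries. C4a and Cr2 were last, and in Cr2, a complement receptor of B cells and follicular dendritic cells, Prmt5 AKO replicates 2 and 3 held no read, which allows up to 3 reads in each of them.

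**Figure D2:**
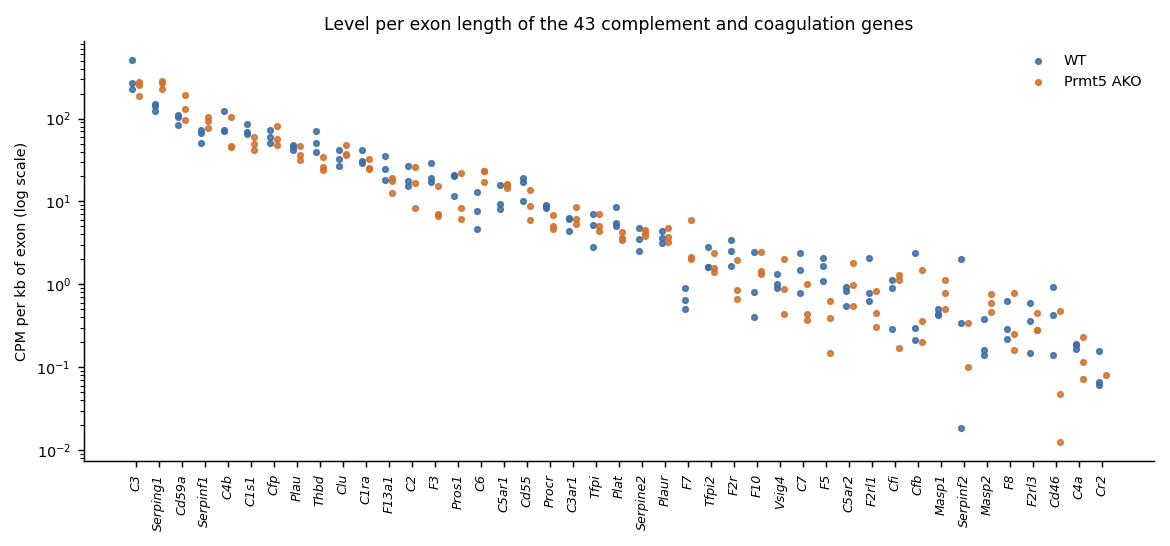
Level of each of the 43 genes in each library as CPM per kilobase of exon (y axis, log scale), ordered by the mean over all 6 libraries, with WT in blue and Prmt5 AKO in orange. Values of 0 (Serpinf2 in Prmt5 AKO replicate 1, Cr2 in Prmt5 AKO replicates 2 and 3) cannot be drawn on this axis. C3 and Serping1 lead the order and C4a and Cr2 close it.

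Among the proteases and substrates of the classical and lectin pathways, the genotypes of C1s1 and Masp2 did not overlap. This was 2 of 7 genes tested, where 14.4% of all genes did not overlap. C1s1 (ENSMUSG00000038521, chr6:124530345-124542359, minus strand, GRCm38) encodes a C1s protease that cleaves C4 and C2. It was at 270, 204 and 213 CPM in the WT libraries and at 187, 130 and 155 CPM in the Prmt5 AKO libraries. Each Prmt5 AKO library was below the lowest WT library, with a log2 fold change of -0.54 (SE 0.27, n = 3 per genotype, limma adjusted p = 0.596). C1s1 has a near copy, C1s2, with which 6.87% of its 100-base windows are shared, and since only uniquely mapped read pairs were counted its level is uncertain to that extent. C1ra, its partner in the C1 complex, shared 34.5% of its windows with C1rb and was at 124, 87.4 and 92.0 CPM in WT and at 96.3, 72.7 and 75.6 CPM in Prmt5 AKO, where the ranges overlapped.

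Masp2 (chr4:148602554-148615499, plus strand) encodes the protease that cleaves C4 and C2 in the lectin pathway. It stood near the filter on low values, at 0.469, 1.25 and 0.534 CPM in WT and at 1.99, 1.52 and 2.50 CPM in Prmt5 AKO. The genotypes did not overlap, with a log2 fold change of 1.04 (SE 0.37, limma adjusted p = 0.487). More than one gene lies here: 1817 bases, 54.9% of the exons of Masp2, are also exons of Tardbp on the other strand, which had a mean of 97.7 CPM over the WT libraries and of 81.7 CPM over the Prmt5 AKO libraries. The strand setting of the read counting is not given in the sources used here, so the reads of this pair may not have been told apart. Masp1, the other protease of the lectin pathway in the list, was at 4.14, 4.28 and 4.98 CPM in WT and at 4.96, 7.76 and 11.2 CPM in Prmt5 AKO, with overlap at the lowest Prmt5 AKO library.

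C4b (chr17:34728380-34743882, minus strand), the main C4 gene in this tissue, was at 698, 408 and 410 CPM in WT and at 596, 256 and 266 CPM in Prmt5 AKO. The genotypes overlapped through replicate 1 of Prmt5 AKO, and the log2 fold change was -0.51 (SE 0.42, limma adjusted p = 0.634), or -0.90 without that library, -0.25 without WT replicate 1 and -0.30 without Prmt5 AKO replicate 2. C4a, which shares 13.1% of its 100-base windows with C4b, was at 0.446 to 1.44 CPM over the 6 libraries. C2, which supplies the protease of the classical C3 convertase, ranged from 59.4 to 104 CPM in WT and from 32.3 to 102 CPM in Prmt5 AKO.

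C3, Cfp and Cfb, the listed genes around C3, each overlapped between the genotypes. C3 (ENSMUSG00000024164, chr17:57203970-57228136, minus strand) was at 2628, 1387 and 1183 CPM in WT and at 1439, 975 and 1301 CPM in Prmt5 AKO. The WT libraries differed among themselves by more than the genotypes did, and the log2 fold change of -0.41 (SE 0.43, limma adjusted p = 0.677) was -0.07 without WT replicate 1. Properdin (Cfp), which stabilises the alternative C3 convertase and is made by myeloid cells, ranged from 88.6 to 126 CPM in WT and from 82.5 to 142 CPM in Prmt5 AKO. Factor B (Cfb), the protease of that convertase, was at 6.66 CPM in WT replicate 1 and 4.17 CPM in Prmt5 AKO replicate 1 and at 0.567 to 1.03 CPM in the other libraries, so that it separated the replicates numbered 1 from the rest and not the genotypes.

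The terminal pathway gave the widest contrast between neighbouring genes. C6 and C7 encode pore components that join C5b one after the other, and both lie on chromosome 15, C6 at chr15:4727175-4814967 on the plus strand and C7 at chr15:4988762-5063740 on the minus strand. C6 was at 45.7, 16.6 and 27.2 CPM in WT and at 82.7, 82.8 and 60.8 CPM in Prmt5 AKO. All Prmt5 AKO libraries lay above all WT libraries, with a log2 fold change of 1.43 (SE 0.38, limma adjusted p = 0.375). C7 was at 6.44, 2.08 and 4.02 CPM in WT and at 2.69, 0.981 and 1.18 CPM in Prmt5 AKO, with overlap between WT replicate 2 and Prmt5 AKO replicate 1. Its log2 fold change was -1.12 (SE 0.48, limma adjusted p = 0.569), the opposite sign to that of C6.

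Since both genes were highest in the same WT library and lowest in the same WT library, their ratio was formed within each library, a measure chosen after their values were seen and given as a description. C6 over C7 was 7.09, 7.98 and 6.77 in the WT libraries and 30.7, 84.4 and 51.5 in the Prmt5 AKO libraries. The WT ratios lay close together although C6 itself ranged from 16.6 to 45.7 CPM in the same libraries, and all Prmt5 AKO ratios were higher.

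The promoters of C6 and C7 are shown because these neighbours carried opposite signs. Each runs from 250 bases before to 50 bases after the start site of the RefSeq gene (GRCm38.p6), 5′ to 3′ on the strand of the gene, at chr15:4726960-4727259 (plus strand) for C6 and chr15:5063724-5064023 (minus strand) for C7. Capitals mark matches to 8 short motifs searched on both strands: the TATA box TATAAA, the GC box GGGCGG, the E-box CACGTG, the AP-1 site TGANTCA, the GAS element TTCNNNGAA, the C/EBP site TTGCNNAA, the ISRE core and the NF-kB site.
C6: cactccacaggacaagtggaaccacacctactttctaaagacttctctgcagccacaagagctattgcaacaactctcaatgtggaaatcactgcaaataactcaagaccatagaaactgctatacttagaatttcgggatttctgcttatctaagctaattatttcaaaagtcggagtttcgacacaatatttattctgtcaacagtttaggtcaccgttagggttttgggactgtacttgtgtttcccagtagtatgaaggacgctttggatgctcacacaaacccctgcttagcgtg
C7: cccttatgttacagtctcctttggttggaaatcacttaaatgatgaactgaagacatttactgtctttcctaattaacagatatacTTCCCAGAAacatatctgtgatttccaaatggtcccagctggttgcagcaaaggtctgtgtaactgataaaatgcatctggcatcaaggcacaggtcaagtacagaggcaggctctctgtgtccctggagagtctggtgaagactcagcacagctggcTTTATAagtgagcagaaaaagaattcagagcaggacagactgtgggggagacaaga
The C6 window held 0 matches and was 41.7% G and C. The C7 window held a GAS element at position -164 from the start site and a TATA box, read on the opposite strand, at -6. A GAS element of this form was found in 8.3% of all 32851 mouse promoters of this length and a TATAAA in 13.6%, so that neither match is rare, and a match of letters is not a site in use.

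None of the 5 complement receptors separated the genotypes. C5ar1 (chr7:16246743-16259540), the receptor of the C5a peptide on myeloid cells, was at 20.7, 40.2 and 24.1 CPM in WT and at 37.7, 41.7 and 40.0 CPM in Prmt5 AKO. WT replicate 2 stood inside the Prmt5 AKO range, and the log2 fold change was 0.54 (SE 0.31, limma adjusted p = 0.601), or 0.82 without WT replicate 2 and 0.35 without WT replicate 1. C3ar1, the receptor of the C3a peptide, ranged from 18.8 to 27.1 CPM in WT and from 23.0 to 37.0 CPM in Prmt5 AKO. C5ar2, a second receptor of C5a, ranged from 1.94 to 6.49 CPM over the 6 libraries, and Vsig4, a receptor of C3 fragments on resident macrophages, from 0.649 to 2.97 CPM. Cr2 was at 1.28, 0.492 and 0.534 CPM in WT and at 0.649, 0 and 0 CPM in Prmt5 AKO, beside a sum of 8 B cell and follicular dendritic cell markers of 20.7 to 43.1 CPM in WT and of 9.42 to 55.5 CPM in Prmt5 AKO.

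Of the 6 regulators of complement, 1 separated the genotypes (16.7%, near the 14.4% of all genes whose genotypes did not overlap). Serping1 (ENSMUSG00000023224, chr2:84765387-84775444, minus strand) encodes the C1 inhibitor, a serpin that removes C1r and C1s from the C1 complex and also inhibits the lectin pathway proteases, plasma kallikrein and factor XII. It was at 334, 350 and 284 CPM in WT and at 533, 657 and 618 CPM in Prmt5 AKO. The lowest Prmt5 AKO library was well above the highest WT library, with means of 323 ± 34.0 and 603 ± 63.9 CPM (SD, n = 3 each) and a log2 fold change of 0.90 (SE 0.27, limma adjusted p = 0.414). Leaving out each library in turn kept the log2 fold change of Serping1 between 0.81 and 0.99.

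Serping1 and one of its target proteases, C1s1, thus stood on opposite sides. Within single libraries, Serping1 over C1s1 was 1.24, 1.71 and 1.33 in the WT libraries and 2.85, 5.05 and 3.98 in the Prmt5 AKO libraries. All ratios in Prmt5 AKO were above those in WT. This had to follow, since Serping1 was higher and C1s1 lower in every Prmt5 AKO library, and it adds nothing to the separate values. This ratio too was chosen after the values were seen. Thbd over F3, Plat over Plau and C4b over C4a were formed as well, and each overlapped between the genotypes.

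**Figure D3:**
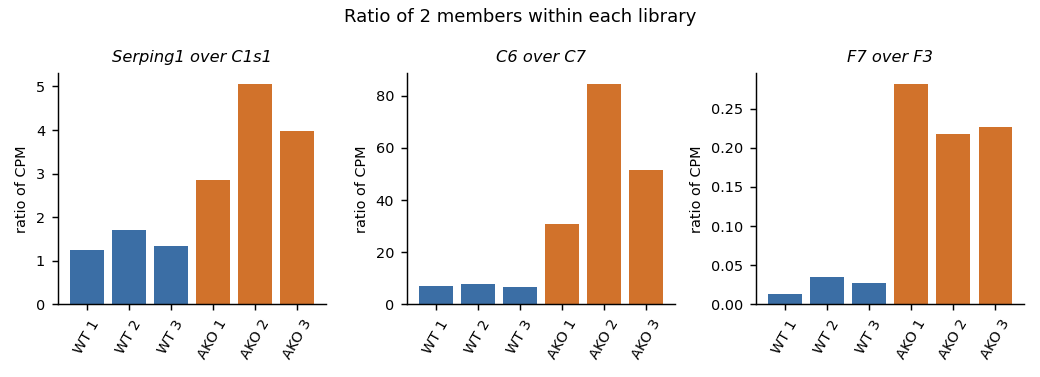
Ratio of CPM of 2 genes within each library: Serping1 over C1s1, C6 over C7 and F7 over F3, with WT in blue and Prmt5 AKO in orange. In each panel all Prmt5 AKO bars are higher than all WT bars, with C6 over C7 at 6.77 to 7.98 in WT and at 30.7 to 84.4 in Prmt5 AKO. For Serping1 over C1s1 and F7 over F3 this follows from the separate genes. Thbd over F3, Plat over Plau and C4b over C4a, which overlap between the genotypes, are not drawn.

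The membrane regulators overlapped between genotypes. Cd59a ranged from 151 to 201 CPM in WT and from 174 to 344 CPM in Prmt5 AKO. Cd55, which speeds the decay of C3 convertases, ranged from 49.5 to 92.0 CPM in WT and from 29.2 to 66.7 CPM in Prmt5 AKO. Clusterin (Clu), a secreted protein that binds the terminal complex, ranged from 91.6 to 143 CPM and from 124 to 164 CPM, and Cfi, which cleaves C3b, was at 0.378 to 2.88 CPM over the 6 libraries. Cd46, a cofactor of Cfi, was at 7.0, 1.06 and 3.24 CPM in WT and at 3.62, 0.357 and 0.0944 CPM in Prmt5 AKO. In both genotypes Cd46 was highest in replicate 1, where the nuclear RNAs were highest too, and 14.2% of its exons overlap the noncoding gene A330023F24Rik on the other strand.

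The coagulation factors held both the largest positive and the largest negative fold change of the 43 genes. F3 (chr3:121723537-121735048, plus strand) encodes tissue factor, the cell surface receptor of factor VII that starts clotting. It was at 72.5, 48.3 and 43.4 CPM in WT and at 39.0, 18.0 and 16.7 CPM in Prmt5 AKO. The genotypes did not overlap, with a log2 fold change of -1.21 (SE 0.39, limma adjusted p = 0.437). F7 (chr8:13026034-13035809, plus strand) encodes factor VII, the protease that tissue factor binds. It was at 0.939, 1.67 and 1.21 CPM in WT and at 10.9, 3.92 and 3.78 CPM in Prmt5 AKO. All Prmt5 AKO libraries were higher, Prmt5 AKO replicate 1 by far the most, and the log2 fold change was 1.78 (SE 0.46, limma adjusted p = 0.356), or 1.32 without that library. DESeq2 on the read counts called F7 (log2 fold change 2.28, adjusted p = 0.00999) with F5 and Serping1, 3 of the 43 genes, against 1.87% of all genes with an adjusted p.

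F7 over F3 was 0.0129, 0.0345 and 0.0278 in the WT libraries and 0.281, 0.218 and 0.226 in the Prmt5 AKO libraries, again a ratio chosen after the values were seen. Its separation had to follow from F7 being higher and F3 lower in every Prmt5 AKO library. Although Prmt5 AKO replicate 1 held the highest level of both genes in its genotype, its ratio lay near those of the other Prmt5 AKO libraries. F10, the neighbour of F7 on chromosome 8 and the protease that factor VII activates, was at 1.11, 6.70 and 2.21 CPM in WT and at 3.66, 3.92 and 6.61 CPM in Prmt5 AKO, with full overlap.

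The promoters of F7 and F3 are shown because the receptor and its ligand stood on opposite sides. They lie at chr8:13025784-13026083 (plus strand) and chr3:121723287-121723586 (plus strand) of GRCm38.p6, from RefSeq, with the same span, direction and capitals as above.
F7: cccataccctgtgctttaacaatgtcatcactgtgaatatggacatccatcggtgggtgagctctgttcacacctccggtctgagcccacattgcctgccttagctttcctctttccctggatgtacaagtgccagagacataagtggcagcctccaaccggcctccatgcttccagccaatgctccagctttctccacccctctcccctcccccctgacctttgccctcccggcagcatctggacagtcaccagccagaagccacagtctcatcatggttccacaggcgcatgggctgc
F3: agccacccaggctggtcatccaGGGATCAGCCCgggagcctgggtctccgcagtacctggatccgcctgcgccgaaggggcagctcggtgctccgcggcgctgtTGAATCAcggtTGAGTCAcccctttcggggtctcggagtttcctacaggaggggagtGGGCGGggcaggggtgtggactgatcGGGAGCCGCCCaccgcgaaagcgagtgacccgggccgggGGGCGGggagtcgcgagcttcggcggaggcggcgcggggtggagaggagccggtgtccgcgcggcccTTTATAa
The F7 window held 0 matches to the 8 motifs and was 57% G and C. The F3 window was 70.3% G and C and held 10 matches, among them AP-1 sites at -146 and -135, 3 GC boxes and 4 NF-kB matches, the latter overlapping in pairs on opposite strands. The AP-1 letters were found in 7.81% of all promoters of this length and in 6 of 39 promoters of the listed genes, the GC box in 35.7% of all and 12 of 39, and the NF-kB letters, which fix only a few bases, in 50.8% of all and 25 of 39.

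F5 (ENSMUSG00000026579, chr1:164151838-164220277, plus strand) encodes factor V, the cofactor with which factor X makes thrombin. It was at 8.24, 12.5 and 15.5 CPM in WT and at 1.11, 2.94 and 4.72 CPM in Prmt5 AKO. Every Prmt5 AKO library was well below every WT library, with the largest negative log2 fold change of the 43 genes, -1.99 (SE 0.49, limma adjusted p = 0.336). F5 was lowest in replicate 1 of each genotype, where F3 and C7 were highest in each genotype. F5 was called by DESeq2 (log2 fold change -2.03, adjusted p = 0.0298) and by limma without WT replicate 1 and Prmt5 AKO replicate 1 (-1.76, adjusted p = 0.0474), a setting chosen after the data were seen that also called C6 and F3, and 1.58% of all genes.

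F13a1 (chr13:36867178-37050244, minus strand), the A chain of the enzyme that crosslinks fibrin, which resident macrophages also make, was at 166, 121 and 240 CPM in WT and at 128, 119 and 84.6 CPM in Prmt5 AKO. The ranges overlapped, and the log2 fold change was -0.63 (SE 0.33, limma adjusted p = 0.597), or -0.38 without WT replicate 3. Of the macrophage markers, Cd163 was at 178, 110 and 144 CPM in WT and at 69.7, 47.7 and 42.1 CPM in Prmt5 AKO, without overlap, and Cd68 was higher in all Prmt5 AKO libraries, at 76.2 to 91.2 CPM against 30.0 to 63.6 CPM. limma called neither, and their part in the level of F13a1 was not tested. F8, a cofactor of the intrinsic pathway made by endothelium, ranged from 1.61 to 7.75 CPM over the 6 libraries and was highest in replicate 1 of each genotype.

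The 3 protease-activated receptors, which thrombin and other clotting proteases switch on by cutting them, each overlapped between the genotypes. F2r (chr13:95601803-95618487, minus strand), the main thrombin receptor PAR1, was at 11.4, 5.53 and 8.40 CPM in WT and at 6.63, 2.23 and 2.83 CPM in Prmt5 AKO. WT replicate 2 lay below Prmt5 AKO replicate 1, and the log2 fold change was -1.10 (SE 0.46, limma adjusted p = 0.563). F2rl1 (PAR2) was at 5.63, 1.74 and 2.17 CPM in WT and at 2.27, 0.847 and 1.23 CPM in Prmt5 AKO, also with overlap, and F2rl3 (PAR4) was at 0.299 to 1.17 CPM over the 6 libraries, with a log2 fold change of -0.02 (SE 0.37).

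Of the 5 anticoagulants, limma called 0, and the genotypes of Thbd and Procr did not overlap (40%, against 14.4% of all genes). Thbd (chr2:148404466-148408188, minus strand) encodes thrombomodulin, which turns thrombin into an activator of protein C. It was at 262, 146 and 189 CPM in WT and at 127, 96.7 and 89.4 CPM in Prmt5 AKO. The genotypes did not overlap, with a log2 fold change of -0.90 (SE 0.30, limma adjusted p = 0.473). Procr (chr2:155751117-155755471, plus strand), the receptor that presents protein C to thrombomodulin, was at 17.8, 18.4 and 17.1 CPM in WT and at 10.2, 9.36 and 13.9 CPM in Prmt5 AKO. The WT libraries lay close together and above all Prmt5 AKO libraries, with a log2 fold change of -0.66 (SE 0.28, limma adjusted p = 0.564).

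The secreted anticoagulants overlapped between genotypes. Pros1, the protein S cofactor of protein C, was at 85.6, 47.9 and 83.7 CPM in WT and at 88.9, 34.2 and 25.1 CPM in Prmt5 AKO. Tfpi, which blocks the complex of tissue factor and factor VII, ranged from 15.4 to 39.0 CPM in WT and from 23.9 to 38.9 CPM in Prmt5 AKO. Tfpi2 was at 2.46 to 4.95 CPM over the 6 libraries.

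In fibrinolysis, Plat (chr8:22757727-22782844, plus strand) encodes tissue plasminogen activator. It was at 54.0, 31.4 and 34.7 CPM in WT and at 21.5, 22.6 and 26.7 CPM in Prmt5 AKO, where the genotypes did not overlap, with a log2 fold change of -0.71 (SE 0.29, limma adjusted p = 0.552). The other activator, urokinase (Plau), ranged from 97.9 to 113 CPM in WT and from 74.1 to 110 CPM in Prmt5 AKO, and its receptor Plaur from 8.29 to 12.6 CPM over the 6 libraries. Serpinf1 (chr11:75409769-75422701, minus strand), the secreted pigment epithelium-derived factor, a serpin that inhibits no protease, was at 170, 159 and 119 CPM in WT and at 222, 245 and 182 CPM in Prmt5 AKO. All Prmt5 AKO libraries were higher, with a log2 fold change of 0.54 (SE 0.27, limma adjusted p = 0.596). Serpine2, an inhibitor of thrombin and plasminogen activators, ranged from 20.7 to 40.0 CPM in WT and from 31.9 to 37.5 CPM in Prmt5 AKO.

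**Figure D4:**
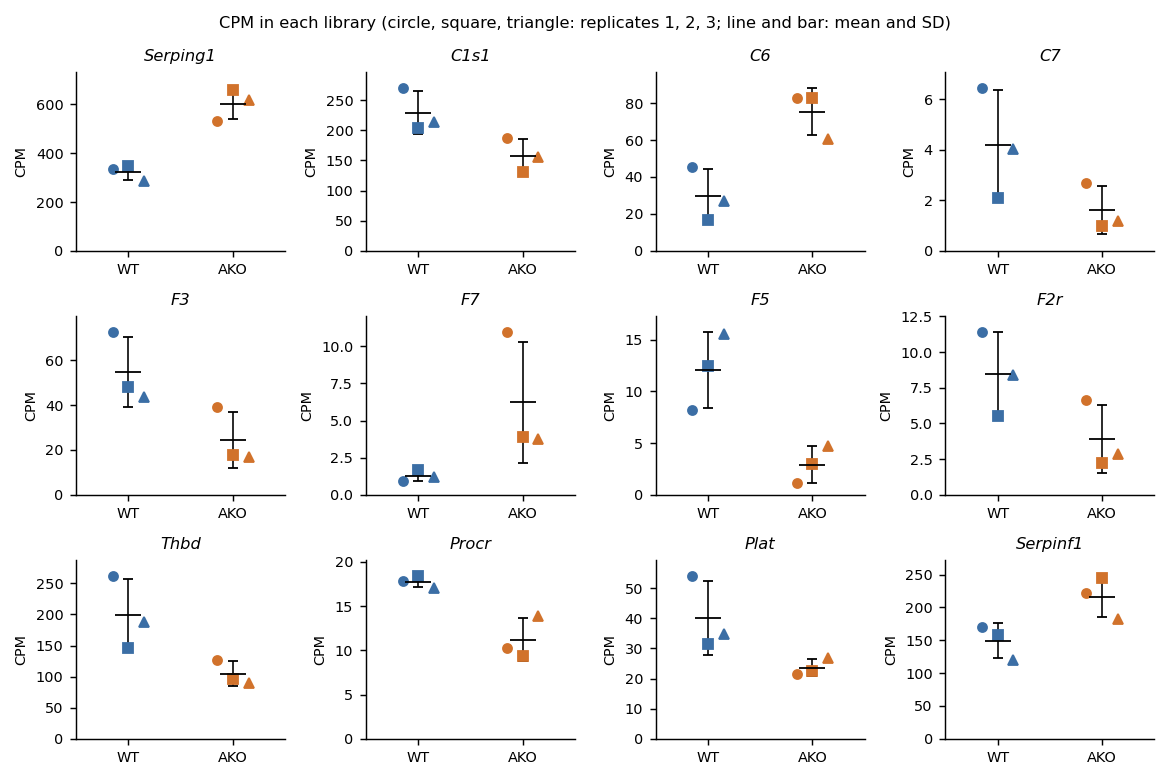
CPM of 12 of the genes in each library (y axis, starting at 0), with circle, square and triangle for replicates 1, 2 and 3, a line at the mean and bars of 1 SD (n = 3). Serping1, C6, F7 and Serpinf1 are higher and C1s1, F3, F5, Thbd, Procr and Plat lower in all Prmt5 AKO libraries, while C7 and F2r overlap.

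Serpinf2, the plasma inhibitor of plasmin and a product of the liver, was at 0.0427, 4.73 and 0.783 CPM in WT and at 0, 0.803 and 0.236 CPM in Prmt5 AKO. It was highest in WT replicate 2, where liver transcripts were highest as well: 6 hepatocyte markers, left after Hp and Cyp2e1 were taken out because fat transcribes them strongly (a choice made after the values were seen), summed to 51.5, 458 and 160 CPM in WT and to 15.9, 122 and 30.4 CPM in Prmt5 AKO. With Hp and Cyp2e1 the list summed to 3798, 5952 and 3452 CPM in WT and to 2821, 5375 and 4981 CPM in Prmt5 AKO. Hp went the other way without overlap, at 765 to 1167 CPM in WT and 1390 to 1681 CPM in Prmt5 AKO, and Cyp2e1 overlapped. Ttr was at 0 in Prmt5 AKO replicate 3. The part of liver transcripts in the levels of F7, F10, F5 and Serpinf2, which the liver also makes, was not tested. In Prmt5 AKO replicate 1, the library with the lowest sum of hepatocyte markers, F7 was at its highest and F5 and Serpinf2 were at their lowest.

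The 10 fibroblast and progenitor markers summed to 14735, 10653 and 10010 CPM in WT and to 8088, 8063 and 7353 CPM in Prmt5 AKO, without overlap. limma called 0 of the 10 (smallest adjusted p 0.318), 9 had negative fold changes where 48.1% of all genes were positive, 6 were lower without overlap where 6.28% of all genes were, and none was at 0. Pdgfra, Col1a1, Col3a1 and Cd34 overlapped. Decorin (Dcn) was at 1631, 1070 and 1544 CPM in WT and at 610, 576 and 492 CPM in Prmt5 AKO. The part of these markers in the lower values of C1s1, F3, Thbd, Procr and Plat was not tested. Sums of the 10 macrophage markers (1303 to 2229 CPM in WT, 1661 to 2698 CPM in Prmt5 AKO), the 10 endothelial markers (819 to 1211 and 967 to 1172 CPM) and the 10 mesothelial markers (277 to 431 and 95.6 to 513 CPM) overlapped between genotypes. All 10 mesothelial markers nevertheless had negative fold changes (median log2 fold change -0.55), and Bnc1 alone was lower without overlap. Bnc1 was at 12.1, 7.31 and 5.37 CPM in WT and at 2.13, 3.03 and 4.44 CPM in Prmt5 AKO. Thbd, Procr and Plat are also made by endothelium, whose markers had 5 positive and 5 negative fold changes. Of these, Kdr alone did not overlap, at 173, 113 and 98.2 CPM in WT and at 89.3, 49.6 and 51.4 CPM in Prmt5 AKO. limma called 0 markers of either list, and their part in the lower values was not tested.

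**Figure D5:**
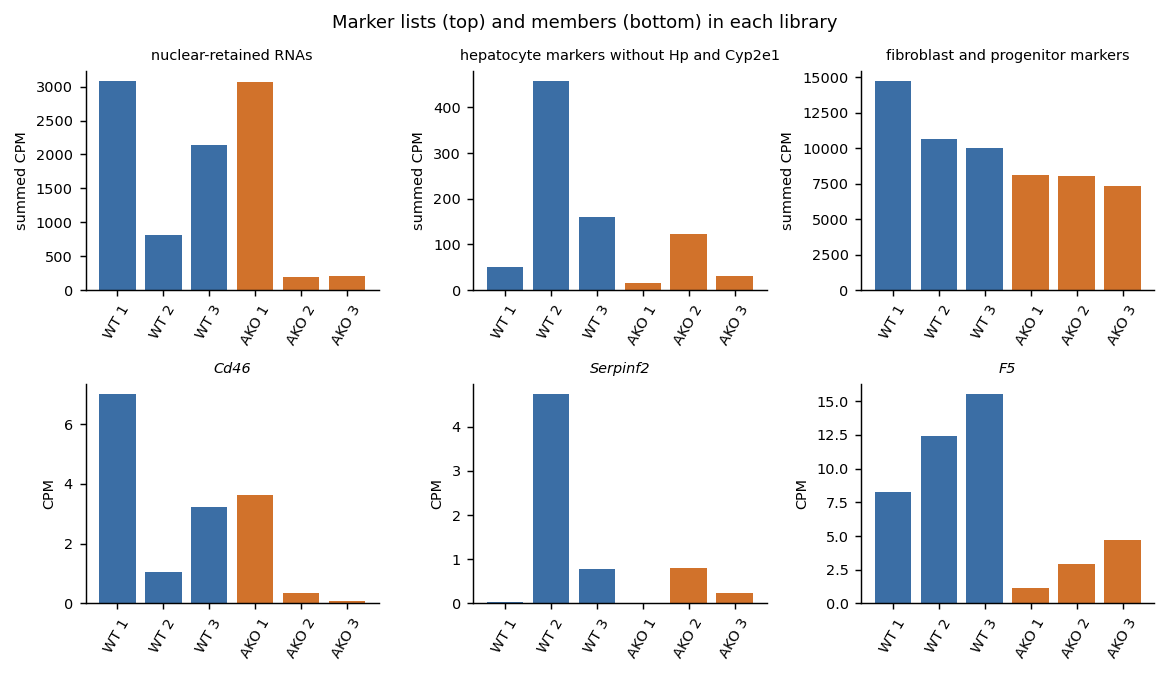
Summed CPM of 3 marker lists (top row) and CPM of Cd46, Serpinf2 and F5 (bottom row) in each library, with WT in blue and Prmt5 AKO in orange. The hepatocyte markers are those without Hp and Cyp2e1. Cd46 has its highest bars in the libraries with most nuclear-retained RNA and Serpinf2 in WT replicate 2, which has the most hepatocyte marker RNA. F5 is lowest in replicate 1 of each genotype, where the hepatocyte markers are lowest in each genotype too. Between replicates 2 and 3 of each genotype, F5 is higher in replicate 3 and the hepatocyte markers are higher in replicate 2.

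Other genes of both cascades, taken from lists of names, gave the surroundings of these results. Of 30 further complement genes, 20 were tested, with a median log2 fold change of -0.13, 8 positive and 12 negative values and 0 called by limma; 1 stood higher and 3 lower at an unadjusted p under 0.05, where 4.79% of all genes stood higher and 3.93% lower. Cfd, which encodes factor D, the protease that activates factor B and a main product of adipocytes, was at 11232, 16319 and 12105 CPM in WT and at 4070, 5805 and 6222 CPM in Prmt5 AKO. The genotypes did not overlap, with a log2 fold change of -1.31 (SE 0.55, limma adjusted p = 0.564). Cd59b, the copy of Cd59a, was at 8.24, 11.1 and 9.93 CPM in WT and at 4.31, 5.66 and 5.38 CPM in Prmt5 AKO (-0.87, SE 0.30, adjusted p = 0.485), so that it carried the opposite sign to Cd59a. Itgax, a chain of complement receptor 4 on myeloid cells, was at 6.44, 7.08 and 5.41 CPM in WT and at 30.6, 9.59 and 16.4 CPM in Prmt5 AKO (1.36, SE 0.43, adjusted p = 0.436). The C1q chains C1qa, C1qb and C1qc together were at 446, 1113 and 741 CPM in WT and at 759, 1189 and 1559 CPM in Prmt5 AKO, with overlap.

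Of 32 further coagulation and fibrinolysis genes, 22 were tested, with a median log2 fold change of -0.54 and 0 called by limma. There were 4 positive and 18 negative values, where 48.1% of all genes were positive. At an unadjusted p under 0.05 stood 1 of the 22 (4.5%), against 8.72% of all genes. That gene, Serpinb2, an inhibitor of urokinase, was at 0.725, 0.871 and 1.49 CPM in WT and at 0.139, 0.223 and 0.189 CPM in Prmt5 AKO (-1.13, SE 0.32, adjusted p = 0.383). Mmrn1, a carrier of factor V in platelets and endothelium, was at 9.0, 0.416 and 4.48 CPM in WT and at 1.02, 1.03 and 0 CPM in Prmt5 AKO, with overlap (-1.74, SE 0.86, adjusted p = 0.596). The fibrinogen chains Fga, Fgb and Fgg, made by the liver, together were at 0.555, 54.2 and 13.2 CPM in WT and at 0, 4.77 and 0.661 CPM in Prmt5 AKO. Within WT this was the order of the hepatocyte markers without Hp and Cyp2e1. Fgb (-2.34, SE 1.10, adjusted p = 0.587) and Fgg (-2.05, SE 1.09, adjusted p = 0.599) were with Serpinb2 and Mmrn1 the 4 genes of smallest p in this list, and their fitted values depend on the pseudocount since Prmt5 AKO replicate 1 was at 0.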

How the data were processed

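RNA of 3 WT and 3 Prmt5 AKO eWAT samples was poly(A)-selected and sequenced on an Illumina HiSeq. Per the labels and the study's methods, the authors used FastQC 0.11.9, Trim Galore 0.6.0 and STAR 2.7.10a against GRCm38 with GENCODE release 25, counted unique proper pairs of mapping quality 10 or more with featureCounts (Subread 2.0.1) and ran edgeR; a batch correction is mentioned without naming a batch. The deposited values are a signal, CPM on effective library sizes, in which 100% of values were whole multiples of 1 read within 0.05 read, so that read counts were recovered (0 per-sample columns were left unused). Plain CPM had been assumed when the design was written, and the planned limma test on log2(CPM + 0.5) was kept. The authors' columns of fold change, mean log2 CPM, likelihood ratio, p-value and false discovery rate, and their enrichment tables, were not used.

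Genes were kept at 0.5 CPM or more in at least 3 libraries, and limma 3.58.1 (R 4.3.3; trended eBayes) compared the genotypes, tested on simulated data first. edgeR 4.0.16, DESeq2 1.42.0, limma-voom, other pseudocounts, filters and scalings, the replicate block and leaving out libraries were alternatives. Every listed gene is accounted for, with values per library for those whose genotypes did not overlap, with an unadjusted p under 0.05 or highest per kb in their role; from each of the lists of other genes the 4 with the smallest p were taken, of which 1 complement gene is not reported here. The genes, marker lists and tests were chosen with earlier results of these data known. Positions and exon lengths came from GENCODE release 21 of the mouse (GRCm38), and promoters from RefSeq (GRCm38.p6), with 33 of 46 genes matched to 39 promoters. Totals of 18731215 to 27445096 reads make 3 reads, the limit that a count of 0 allows, 0.107 CPM in the deepest and 0.139 CPM in the shallowest library. On effective library sizes the limit was highest in Prmt5 AKO replicate 3, at 0.142 CPM. It covers counting error only.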

Additional observations from a re-analysis of the deposited data

How the results depend on the processing

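Over up to 25 alternatives (24 for Masp2), 0 of the 17 listed genes given with tests changed sign and 6 were called under at least 1 alternative (C6, Serping1, F3, F5, F7 and Thbd). The signs were largely set in advance, since most of the 17 were chosen by lack of overlap or a low p in these data. Where genotypes do not overlap, leaving out a library cannot reverse the sign. Other cutoffs, other eBayes settings and the replicate block in limma keep the main fold change. Alternatives that called any of the 6 called 0.801% to 4.23% of all genes. The share of all genes called under at least 1 alternative was not computed. Quantile normalization and eBayes without a trend called 1 gene in all, and neither called any of the 43. With read counts as input, the likelihood ratio test of edgeR called 162 genes (1.01%) and 1 of the 43 (F7), and DESeq2 called 301 and 3. The sources do not say whether replicate numbers pair the samples. Deviations from the genotype means correlated at 0.68, 0.57 and -0.11 for numbers 1, 2 and 3. Prmt5 AKO replicate 3 correlated best with WT replicate 2. With 3 libraries per genotype, these correlations cannot decide whether libraries of the same number shared a batch. Under a block for replicate number, limma called 129 genes (0.801%) and 1 of the 43 (F5). The likelihood ratio test with this block called 682 genes (4.23%) and 6 of the 43, with Prmt5 at -1.08 (adjusted p = 0.0366). The cause of these differences between tests was not tested.

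Leaving out 1 library at a time called 0 to 84 genes (84, or 0.521%, without Prmt5 AKO replicate 1) and 0 of the 43. It left 5 to 18 of the 43 at an unadjusted p under 0.05, against 3.98% to 35.3% of all genes. Without overlap were 11 to 25 of the 43, against 17.3% to 56.8% of all genes. The medians were -0.21 to -0.01 for complement and -0.63 to -0.31 for coagulation, and Prmt5 ranged from -1.28 to -0.81. Without WT replicate 1 and Prmt5 AKO replicate 1, the libraries with the most nuclear-retained RNA in each genotype (an alternative chosen after seeing the data), 254 genes were called and 3 of the 43, 17 stood at an unadjusted p under 0.05, against 28.4% of all genes, and 27 did not overlap, against 63.3%. The complement median was 0.01 with a filter at 2 CPM, 0.02 with edgeR and 0.03 with DESeq2, so its sign was not stable, and no scaling moved the median of all genes by over 0.1. The counts of genes at an unadjusted p and without overlap were also chosen after seeing the data. Low genes such as Masp2, F7 and C7 rest on few reads. The further complement and coagulation genes were not run under the alternatives.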
